A study of Homo sapiens with 28 samples.

Results

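Open chromatin was examined at 6 genes that encode transcription factors or coactivators of plasma cell identity, IRF4, PRDM1, XBP1, POU2AF1, MEF2C and ZBTB20. Every accessible region whose nearest annotated transcription start belonged to one of these genes was taken, which gave 107 of the 154985 regions in the series. ZBTB20 contributed 38 regions, MEF2C 27, POU2AF1 18, IRF4 14, PRDM1 6 and XBP1 4. A region within 2500 bases of an annotated start was called a promoter region, which applied to 41 of the 107, and the other 66 were called distal.

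A plasma cell arises when an activated B cell shuts down its B cell program and builds the machinery that secretes antibody. IRF4 drives this switch and remains essential for the survival of myeloma cells, PRDM1 (Blimp-1) represses B cell genes, and XBP1 controls the unfolded protein response and the expansion of the secretory apparatus. POU2AF1 (OCA-B) is a coactivator that docks on octamer-binding factors, MEF2C is a factor of B cell activation and proliferation, and ZBTB20 is a BTB zinc-finger protein that supports the survival of plasma cells.

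ATAC-seq, which reads out the DNA that a transposase can reach, was run on viable sorted cells of 22 established human myeloma cell lines listed as untreated. In 6 of these lines, Karpas620, KMS27, L363, MM1S, OPM2 and RPMI8226, a further library was made on day 3 of treatment with 10 µM lenalidomide, a drug that directs the transcription factors IKZF1 and IKZF3 to degradation. Each line was assayed once in each state, so no error within a line is known and p-values measure the spread between lines. The labels do not say whether the untreated cells received a vehicle, and a cell line stands for 1 patient's tumour after long growth in culture.

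The libraries held between 1599857 and 5564534 counts in regions when untreated and between 2168680 and 4248017 after lenalidomide. Levels are given as CPM, the counts of a region scaled to a library total of 1e6, and intervals are 95% Wilson intervals that cover counting error only. The regions nearest the starts of 6 plasma cell markers, among them SDC1 (syndecan-1) and TNFRSF17 (BCMA), were called in a median of 20.5 of the 22 lines, and their summed level was between 112 and 267 CPM. SLAMF7 and IGJ were the exceptions among them, called in 2 and 3 lines. The summed levels at 4 B cell, 5 T cell, 5 myeloid and 4 epithelial markers were between 1.98 and 58.6, 18.8 and 78.4, 2.76 and 35.7, and 1.86 and 82.6 CPM, with the highest B cell sum in Karpas620 and the highest epithelial sum in KMS12BM. Of those other-cell markers, only the region at CD8A was called in more than 10 lines, namely 21. In such bulk libraries, a lower level in fewer cells and a lower level in every cell cannot be told apart. The libraries of KMS34 and PE1 were unusually alike, with a correlation of 0.92 over 41640 regions. That value lay within the range of 0.92 to 0.95 between the untreated and treated libraries of the same line, whereas the next closest of the 231 pairs of untreated lines reached 0.75. KMS12BM and KMS12PE, which are known to derive from the same patient, had a correlation of 0.70. PE1 was also left out as an alternative chosen after seeing the data.

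A set of 5 stretches of the member regions shows what kind of sequence was open, and was picked after the levels were seen. They comprise the tallest distal region of IRF4, an upstream promoter region of PRDM1 that was open in most lines, and the regions of POU2AF1, MEF2C and ZBTB20 in which several motifs fell together. Each is the 300 bases around the middle of its region on the plus strand of GRCh37, and capitals mark matches to the motifs named in the next paragraph, of which the IRF4 intron holds none.
IRF4 intron, chr6:399891-400190: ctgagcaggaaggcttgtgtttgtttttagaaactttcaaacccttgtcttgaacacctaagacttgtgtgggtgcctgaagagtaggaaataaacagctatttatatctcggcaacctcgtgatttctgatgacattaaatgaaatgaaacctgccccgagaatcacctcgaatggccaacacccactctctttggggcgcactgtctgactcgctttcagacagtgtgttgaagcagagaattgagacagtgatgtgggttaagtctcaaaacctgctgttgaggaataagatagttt
PRDM1 upstream, chr6:106532420-106532719: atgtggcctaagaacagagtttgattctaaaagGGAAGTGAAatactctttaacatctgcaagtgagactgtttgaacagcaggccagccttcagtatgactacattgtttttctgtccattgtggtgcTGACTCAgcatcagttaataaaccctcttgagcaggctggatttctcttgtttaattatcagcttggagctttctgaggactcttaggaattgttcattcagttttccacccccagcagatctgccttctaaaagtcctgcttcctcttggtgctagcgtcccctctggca
POU2AF1 intron, chr11:111232598-111232897: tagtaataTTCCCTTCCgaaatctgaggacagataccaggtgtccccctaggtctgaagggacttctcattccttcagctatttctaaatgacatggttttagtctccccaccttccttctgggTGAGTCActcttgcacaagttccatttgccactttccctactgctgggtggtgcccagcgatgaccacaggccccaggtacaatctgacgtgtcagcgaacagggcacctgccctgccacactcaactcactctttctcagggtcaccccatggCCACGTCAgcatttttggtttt
MEF2C intron, chr5:88028059-88028358: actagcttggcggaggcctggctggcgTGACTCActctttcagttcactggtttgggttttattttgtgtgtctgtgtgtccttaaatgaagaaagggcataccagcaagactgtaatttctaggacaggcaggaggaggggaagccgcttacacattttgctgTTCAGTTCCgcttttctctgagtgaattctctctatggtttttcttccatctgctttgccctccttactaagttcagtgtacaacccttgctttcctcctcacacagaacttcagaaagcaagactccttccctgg
ZBTB20 upstream, chr3:114879203-114879502: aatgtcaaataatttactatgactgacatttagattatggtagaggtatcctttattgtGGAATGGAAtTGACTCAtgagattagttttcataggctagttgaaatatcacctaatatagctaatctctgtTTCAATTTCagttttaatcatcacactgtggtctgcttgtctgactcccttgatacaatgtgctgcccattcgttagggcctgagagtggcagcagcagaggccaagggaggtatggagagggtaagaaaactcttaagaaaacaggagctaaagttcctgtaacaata

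Motifs were searched on both strands in the middle 300 bases of all 154985 regions. The composite site of ETS factors and IRF4 (GGAANNGAA) was present in 17 of the 107 member regions, or 15.9%, and in 9.47% of all regions. The core of the interferon-stimulated response element (GAAANNGAA), which IRF4 and PRDM1 can both occupy, was present in 16 member regions, or 14.95%, and in 15.8% of all regions. The AP-1 site (TGANTCA) was found in 21 member regions, or 19.6%, and in 15.2% of all regions. The octamer (ATGCAAAT), the site on which POU2AF1 is recruited, was found in 5 member regions and in 3.72% of all regions. GAAAGTGAA, which resembles the preferred PRDM1 site and is contained in the response element core, occurred in 1 member region and in 1.81% of all regions. The MEF2 core (CTAAAAATA) and the XBP1 site of the unfolded protein response (TGACGTGG) each occurred in 1 member region, or 0.935%, and in 3.66% and 0.434% of all regions. The MEF2 core lay at 2 positions in a region of MEF2C that is 235 bases upstream of an annotated start. The XBP1 match lay in the POU2AF1 intron printed above. In the POU2AF1 intron and the ZBTB20 upstream region, 3 different motifs fell within the same 300 bases. The same was true of an XBP1 region (chr22:29195138-29195314). A POU2AF1 region (chr11:111270098-111270455) held AP-1 and, at 1 position, both the response element core and GAAAGTGAA. In the PRDM1 upstream and MEF2C intron windows the ETS-IRF composite and AP-1 fell together, as they did in further regions of both genes. The share of all regions with such combinations was not counted. A match is a stretch of letters and no evidence that a factor was bound.

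**Figure D1:**
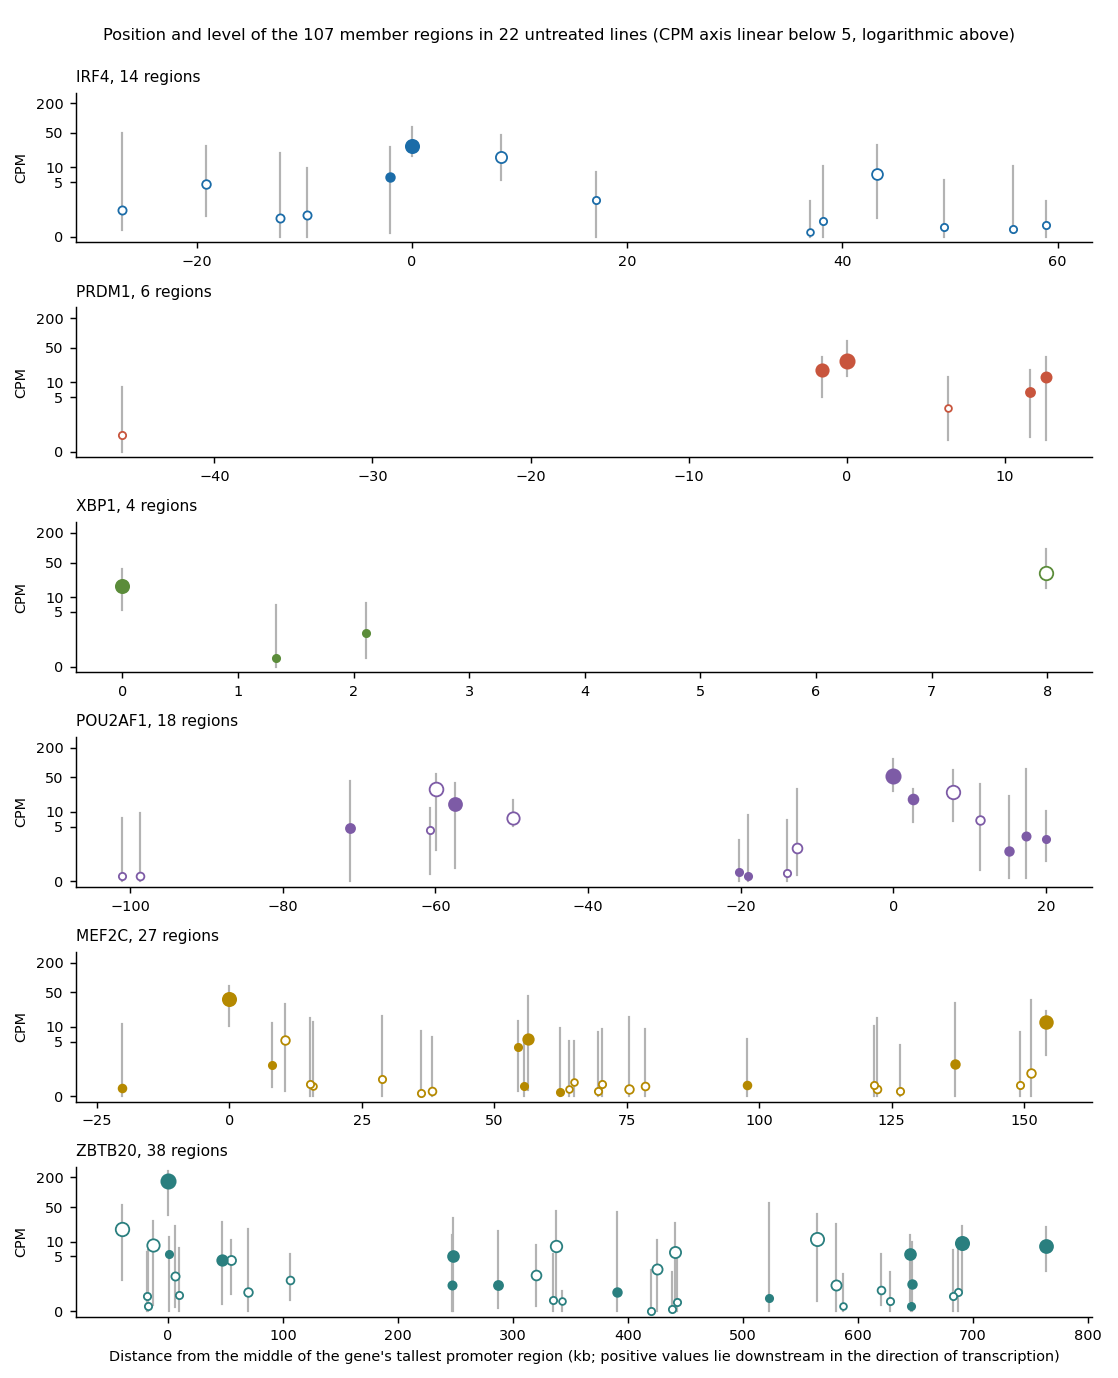
Median accessibility (CPM) of each of the 107 regions over the 22 untreated lines, by distance in kb from the middle of the gene's tallest promoter region; filled points are promoter regions, open points distal regions, larger points were called in more lines, and grey bars run from the lowest to the highest line. ZBTB20 regions spread over the longest stretch, and the tallest promoter region stood above the other regions of its gene everywhere except at XBP1.

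By peak calls few member regions were open in every line, as was true of all regions, while by level the member share was above that of all regions. A region was called in a line when the authors' peak calling gave that library a peak of its own inside it. By this measure 3 of the 107 regions, or 2.80%, were called in all 22 lines, against 3.98% of all regions. All 3 were promoter regions, 1 each of PRDM1 (chr6:106533828-106534469), POU2AF1 (chr11:111249257-111250951) and ZBTB20 (chr3:114865382-114867076). They made up 7.32% of the 41 member promoter regions, against 13.4% of all promoter regions. None of the 66 distal regions was called in all lines, against 0.575% of all distal regions. At the other end, 39 member regions (36.4%, against 37.1% of all regions) were called in a single line and 7 (6.54%, against 8.06%) only after lenalidomide. H1112, the deepest library, called 58 of the 107 regions (54.2%, against 38.1% of all regions), KMS26 17 (15.9%, against 14.7%) and L363 17 (15.9%, against 12.2%). When a level of at least 1 CPM was used instead of a call, 28 member regions (26.2%, against 16.3% of all regions) were open in all lines. At 2 CPM 16 were (15%, against 10.5% of all regions). These shares by level were not split by kind of region. Promoter regions were 41 of the 107 members and 41131 of all 154985 regions. Over the series they had a median level of 4.45 CPM, against 2.02 CPM for distal regions.

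IRF4 had a single strong promoter region and a string of distal regions that differed between lines. The promoter region at chr6:391209-392397 covers the start and the 5′ UTR. Its level was lowest in PE1 (16.9 CPM, interval 11.6 to 24.6), had a median of 27.3 CPM and was highest in LP1 (65.6 CPM, interval 55.9 to 76.9), and it was called in 18 lines. The lowest line was thus still well above 0, and LP1 and KMS12PE (56.2 CPM) stood apart at the top. Without PE1, the lowest line was PCM6, with 17.7 CPM. The intronic region at chr6:399756-400327, which lies 6.48 kb downstream of the nearest annotated start, that of another transcript, was the tallest distal region and was called in 11 lines. It ran from 5.61 CPM in L363 through a median of 16.1 to 44.4 CPM in H1112.

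The most variable IRF4 region, chr6:364568-365204, lay 26.5 kb upstream. Its median was 2.47 CPM, but KMS27 reached 50.9 CPM and H1112 38.5 CPM, and it was called only in these 2 lines and PCM6. A region 18.5 kb upstream, picked after its values were seen, was called in 4 lines, Karpas620, KMS12BM, KMS20 and RPMI8226. Summed over all 14 regions, IRF4 accessibility ran from 58.3 CPM in KMS21BM through a median of 78.2 to 201 CPM in KMS12PE, and promoter regions made up a median of 41.0% of it. RPMI8226 had the highest summed CPM in the surrounding 5 Mb, at 1.94 times the median line, and KMS12PE was close to the median at 1.06. The lowest line depended on the scaling, being PE1 with TMM factors (52.0 CPM) and XG-6 after division by the local ratio, while KMS12PE was highest under both.

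PRDM1 accessibility lay almost entirely in promoter regions, which made up a median of 92.3% of its sum. The main promoter region, chr6:106533828-106534469 over the 5′ UTR, was called in all 22 lines. It was lowest in PCM6 (13.5 CPM, interval 9.39 to 19.4), had a median of 26.7 CPM and was highest in KMS18 (68.4 CPM, interval 57.3 to 81.7). KMS18 stood well above the next line, KMS12BM at 37.6 CPM, and the region was called even in the lowest line. The region printed above, 1.32 kb upstream of the start at chr6:106532270-106532870, was called in 15 lines and ran from 4.99 CPM in XG-6 to 33.1 CPM in KMS12BM, with a median of 17.8.

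An internal start of PRDM1 varied more than the main one. The region over it, chr6:106546455-106546990, ranged from 1.04 CPM in Karpas620 through a median of 12.7 to 32.5 CPM in KMS34, and was called in 8 lines. Its SD on the log2 scale was 0.92, against 0.55 at the main promoter region. Karpas620 was thus near 0 at the internal start while its level at the main promoter region was 27.1 CPM. The 2 distal regions of PRDM1 were weak: the taller, an intronic region at chr6:106540301-106540739, peaked at 12.5 CPM in KMS34 and was called in no untreated line. The other, chr6:106488176-106488497, lay 45.7 kb upstream, was listed at 0 counts in LP1, which allows up to 1.67 CPM by the Wilson interval, and reached 8.15 CPM in KMS12BM. Summed PRDM1 accessibility ran from 35.6 CPM in XG-6 through a median of 63.4 to 136 CPM in KMS18. The summed CPM of the 5 Mb around PRDM1 was also highest in KMS18, at 1.69 times the median line. After division by this local ratio PE1 was the highest line (KMS34 if PE1 was left out) and Karpas620 the lowest, with 30.0 CPM. The part of copy number in these results was not tested.

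XBP1 was the only gene whose tallest region was distal. The region at chr22:29187798-29189339 lies in no annotated gene, 3.69 kb from the nearest XBP1 start and downstream of the main promoter region. It was lowest in Karpas620 (15.6 CPM, interval 11.7 to 20.9), had a median of 30.2 CPM, reached 94.1 CPM in KMS26 (interval 80.4 to 110) and was called in 19 lines. KMS26 was far above the next line, OCIMY5 at 48.6 CPM. The promoter region at chr22:29196177-29196933, over the 5′ UTR, ran from 5.36 CPM in KMS21BM through a median of 17.1 to 36.7 CPM in L363 and was called in 18 lines. KMS26 came next there with 31.2 CPM. The most variable region, an exonic stretch at chr22:29195138-29195314, had a median of 0.82 CPM and was called only in H1112, at 6.83 CPM.

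Summed XBP1 accessibility was highest in KMS26, at 134 CPM, and lowest in KMS21BM, at 27.97 CPM, with a median of 54.6. The 5 Mb around XBP1 held 2.74 times the summed CPM of the median line in KMS26, the largest such value at any of the 6 genes. When each sum was divided by this local ratio, PE1 became the highest line, with 77.5 CPM (H1112 if PE1 was left out), and KMS21BM remained the lowest, with 31.2 CPM.

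POU2AF1 had open regions both inside the gene and far upstream. Its main promoter region, chr11:111249257-111250951, was called in all 22 lines and ran from 26.4 CPM in KMS28 (interval 20.4 to 34.2) through a median of 52.9 to 119 CPM in Karpas620 (interval 107 to 132). Karpas620 and KMS21BM (101 CPM) were the highest. Of the distal regions, the intronic chr11:111241859-111242794 was called in 19 lines, from 6.59 CPM in Karpas620 through a median of 25.7 to 71.7 CPM in H1112. The line with the most open promoter was therefore the lowest at this intronic region.

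The tallest distal region, intronic at chr11:111309713-111310359, lay 3.94 kb upstream of a distant alternative start and was called in 20 lines. It ran from 2.88 CPM in H1112 (interval 1.77 to 4.67) through a median of 28.6 to 58.1 CPM in KMS26 (interval 47.5 to 71.0). H1112 was thus the lowest line here and the highest at the other tall intronic region. The most variable region was the intronic stretch printed above, chr11:111232463-111233034, which lies 1.97 kb from an internal start. Its median was 4.11 CPM, but H1112 reached 72.6 CPM and PCM6 37.7 CPM, and it was called only in these lines and RPMI8226. Summed POU2AF1 accessibility ran from 135 CPM in U266 through a median of 199.5 to 394 CPM in H1112, and promoter regions made up a median of 57.3%. The local ratio was also lowest in U266, at 0.45, and highest in H1112, at 1.59, and after division by it PE1 was the highest line (KMS34 if PE1 was left out) and KMS28 the lowest.

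MEF2C was the gene whose sum varied most between lines. Its SD on the log2 scale was 0.69 over the 22 lines, against 0.36 at POU2AF1, the least variable. The main promoter region, chr5:88178789-88180361 over the 5′ UTR, was lowest in KMS12BM (10.3 CPM, interval 7.50 to 14.0), had a median of 36.9 CPM and was highest in LP1 (66.0 CPM, interval 56.3 to 77.4). It was called in 18 lines. A further promoter region at an internal start, chr5:88122867-88123461, was called in 9 lines, with a median of 5.60 CPM and 43.0 CPM in RPMI8226.

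Distal MEF2C regions were open in few lines each. The tallest, intronic at chr5:88168713-88169510, was also the most variable, from 0.46 CPM in PCM6 through a median of 5.39 to 28.7 CPM in LP1, and it was called in H1112, Karpas620, KMS20 and LP1. The intronic region printed above, chr5:88027874-88028544, was listed at 0 counts in KMS21BM, had a median of 2.12 CPM and reached 34.5 CPM in RPMI8226, with calls in H1112, PCM6, RPMI8226 and XG-6. Of the 27 MEF2C regions, 12 were called in a single line, against 37.1% of all regions, and H1112 called 17, against 38.1% of all regions. Summed MEF2C accessibility ran from 37.1 CPM in KMS12BM through a median of 120 to 232 CPM in H1112. The local ratio in H1112 was 0.87 and that in KMS12BM 0.65, and after division by it H1112 remained the highest line while KMS21BM became the lowest. KMS12PE, from the same patient as KMS12BM, was next to lowest in summed MEF2C promoter level, at 35.1 CPM against 28.7 CPM.

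ZBTB20 carried the tallest region of all 6 genes. The promoter region at chr3:114865382-114867076, over a 5′ UTR, was called in all 22 lines. It was lowest in KMS12BM (35.2 CPM, interval 29.8 to 41.7), had a median of 169 CPM and was highest in KMS18 (271 CPM, interval 248 to 296) and L363 (269 CPM). The long gene also held scattered regions. The tallest distal region, chr3:114905235-114906385, lay in no annotated gene 39.1 kb upstream, was called in 19 lines and ran from 2.83 CPM in RPMI8226 through a median of 18.1 to 54.2 CPM in KMS21BM. The intronic chr3:114301635-114302292 was called in 18 lines, from 0.94 CPM in RPMI8226 through a median of 11.5 to 35.8 CPM in PCM6.

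PCM6 stood apart at 2 internal promoter regions of ZBTB20. The most variable region, chr3:114475324-114476036, was at 0 counts in Karpas620, had a median of 1.75 CPM and reached 40.5 CPM in PCM6. The region chr3:114343630-114344107, at an internal start, was called only in PCM6, with 61.4 CPM there, 5.19 CPM in the next line and a median of 1.18. It falls outside the rule for named regions and was picked after its values were seen. Summed ZBTB20 accessibility ran from 104 CPM in KMS12BM through a median of 357 to 600 CPM in PCM6. The local ratio was highest in PCM6, at 1.59, and after division by it the highest line was KMS21BM, with 514 CPM, while KMS12BM remained the lowest, with 114 CPM.

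**Figure D2:**
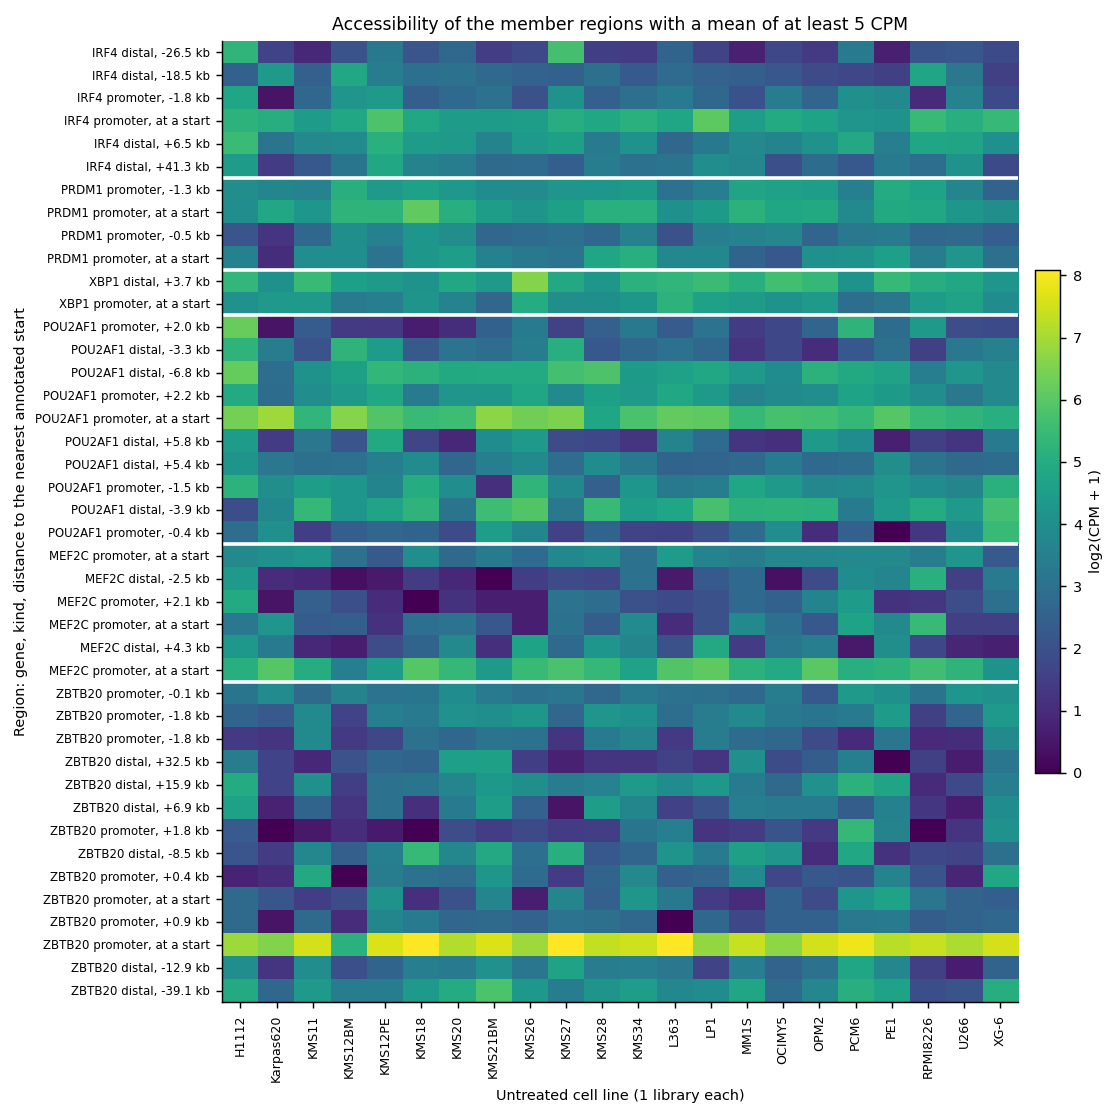
Accessibility, as log2(CPM + 1), of the 42 member regions with a mean of at least 5 CPM, in rows by gene and position and in columns by untreated line. The ZBTB20 and POU2AF1 main promoter regions were high throughout, and many distal rows were bright in only a few lines, such as the IRF4 region 26.5 kb upstream in KMS27 and H1112.

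Regions of the 6 genes were about as variable between lines as other regions of similar level. The 42 member regions with a mean of at least 5 CPM had a median SD of 0.97 on the log2 scale, and the 41640 such regions of the whole series had 0.96. Within a gene, promoter and distal sums moved together to different degrees over the 22 lines: Spearman's rho was 0.70 at PRDM1, 0.63 at MEF2C, 0.54 at XBP1, 0.50 at ZBTB20, 0.44 at IRF4 and 0.34 at POU2AF1. Between genes the sums were nearly unrelated, with rho between -0.37 for PRDM1 with POU2AF1 and 0.37 for XBP1 with MEF2C over the 15 pairs. These values are descriptions over 22 lines, which share library depth and local copy number at neighbouring regions.

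Promoter levels were compared between genes per kb of region and within each line. ZBTB20 had the highest mean, 32.1 ± 11.2 CPM per kb (SD, n = 22), followed by PRDM1 with 29.4 ± 10.8, IRF4 with 25.4 ± 9.22, POU2AF1 with 24.3 ± 7.74, XBP1 with 19.9 ± 7.94 and MEF2C with 15.8 ± 5.30. In the permutation test with 100000 random sign flips over the 22 lines, two-sided, no neighbours in this order passed the threshold after adjustment for 5 comparisons. The smallest adjusted p was 0.117, for XBP1 above MEF2C in 15 of 22 lines, with a mean difference of 0.30 ± 0.57 (SD) in log2(CPM per kb + 1). Without PE1 that difference was 0.36 with an adjusted p of 0.0145 in the permutation test. With local scaling, POU2AF1 exceeded XBP1 by 0.46 in 17 of 22 lines, with an adjusted permutation p of 0.0182. None passed without KMS12BM or without KMS12PE, alternatives chosen after seeing the data, and without KMS12PE IRF4 and POU2AF1 changed places (-0.0051). The tallest promoter region of each gene was also used alone, chosen by mean CPM over these same 22 lines. It was the highest of 13 regions at ZBTB20, 10 at MEF2C, 9 at POU2AF1, 4 at PRDM1, 3 at XBP1 and 2 at IRF4. The p-values of this setting therefore compare values already used for the choice. In it ZBTB20, with 99.2 CPM per kb, exceeded PRDM1, with 42.3, in 21 of 22 lines, with an adjusted permutation p of 2.0e-04. PRDM1 again came next and exceeded IRF4 (adjusted permutation p of 0.0013), but POU2AF1 exceeded IRF4 (0.0133) and XBP1 (0.00293), so the place of IRF4 depended on which promoter regions were counted. XBP1 was higher than MEF2C in 10 of 22 lines, and their difference of -0.13 did not pass the threshold (adjusted permutation p of 0.308).

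**Figure D3:**
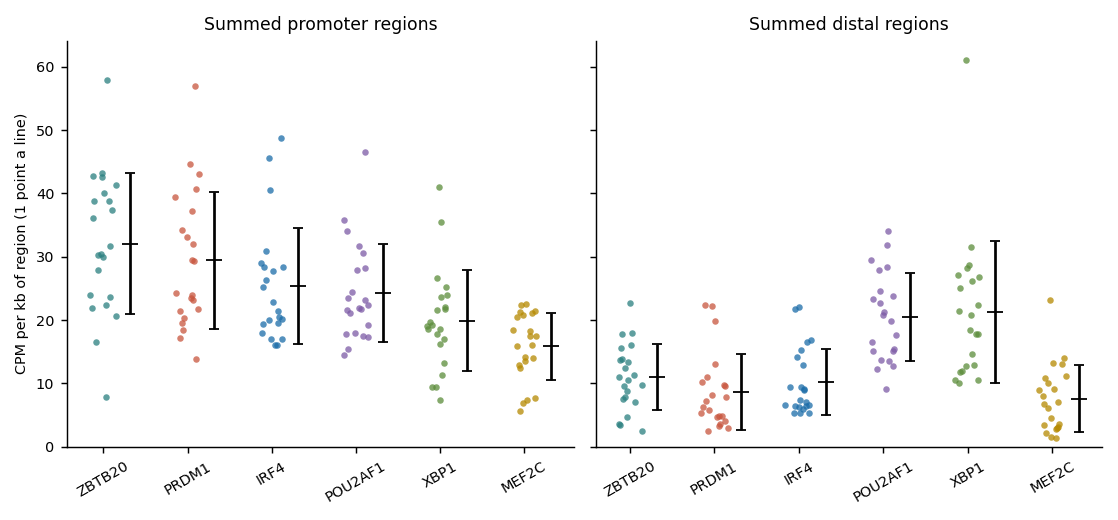
Summed promoter (left) and distal (right) accessibility of each gene in CPM per kb of region, with 1 point for each of the 22 untreated lines and the mean and SD beside the points. The promoter levels of neighbouring genes overlap widely, with means from 32.1 at ZBTB20 to 15.8 CPM per kb at MEF2C, and XBP1 and POU2AF1 had the highest mean distal levels, 21.3 and 20.4 CPM per kb, with KMS26 far above the other lines at XBP1.

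For each gene, the genes with the most similar pattern over the 22 lines were found by Spearman's rho of summed CPM among 21464 genes with a mean of at least 10 CPM. Several of the closest were neighbours on the chromosome. PRDM1 was closest to a gene known by a clone name, 0.0617 Mb away, with a rho of 0.84, and then to FAM120A on chromosome 9 (0.77) and ZUFSP on chromosome 6 (0.74). XBP1 was closest to PITPNB, 0.914 Mb away, with a rho of 0.90, followed by EXTL1 on chromosome 1 (0.86) and RP4-539M6.18 on chromosome 22 (0.82). IRF4 was closest to UQCRC2P1 on chromosome 3 (0.79), then to RP3-416J7.4, 0.155 Mb away (0.75), and SLC29A1 on chromosome 6 (0.73). POU2AF1 was closest to RAB23 on chromosome 6 (0.84), EI24 and CHORDC1 on its own chromosome 11 (both 0.81). MEF2C was closest to FOXI2 (0.79) and EEF1DP3 (0.72), both on other chromosomes, and ZBTB20 to ROBO1 (0.81) and RP11-190P13.2 (0.79) on its own chromosome 3 and to RP11-813P10.2 on chromosome 12 (0.79). Accessible regions near the start of a neighbouring gene are annotated to that gene, so the 107 regions do not hold every open site around the 6 genes.

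Lists of other genes in the same network were read at the region nearest each start. Of 14 partners and related factors, 2 were called in all 22 lines: MEF2D, a paralog of MEF2C, and ELL2, an elongation factor that promotes secretory immunoglobulin mRNA. IKZF1 was called in 20 lines and IKZF3, the other degradation target of lenalidomide, in 6, with at most 12.9 CPM. Regions at POU2F2 and SPIB, both B cell factors, were called in a single line each. Of the 9 genes of the B cell program with a region, 2 were called in all lines, CIITA, the master regulator of MHC class II, and ETS1. BCL6 and MITF were called in 20 lines each, ID3 in 18 and BACH2 in 17, and the median over this list was 18 lines. PAX5, the B cell identity factor that PRDM1 represses, was called in 3 lines and reached 37.4 CPM in KMS27. EBF1 was called in 6 lines and MS4A1 in 2. Of 14 plasma cell and secretory genes, 3 were called in all lines: TNFRSF17, ERN1, the sensor that splices XBP1 mRNA, and HSPA5, the chaperone BiP. The median over this list was also 18 lines, but CD27 was called in 1, SLAMF7 and EDEM1 in 2 each and IGJ in 3. The nearest regions of ATF6, DNAJB9 and SEC61B lay 6296, 8574 and 13417 bases from the start. For scale, 13.4% of all promoter regions were called in all 22 lines, and these lists are short.

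Lenalidomide was followed by no change at the member regions that passed the threshold. edgeR's quasi-likelihood test with the cell line as a block, fitted on the 37732 regions with enough counts, called 2036 regions (5.40%), of which 1575 rose and 461 fell. Of the 107 member regions 33 could be tested, and 0 were called. At an unadjusted p below 0.05 there were 4 of the 33 (12.1%), against 17.3% of all regions tested, and DESeq2 also called 0. The median log2 difference was -0.08 over the 33 member regions and -0.01 over all regions. Ranges overlapped between the untreated and treated libraries of the 6 lines at every one of the 33 regions. The share of all regions with such overlap was not counted, and these ranges ignore the pairing by line. The other 74 regions, 52 of them distal, had too few counts to enter this test. When no filter on low counts was used, edgeR called 3 of the 107 member regions and 4092 of 154981 regions of the series. Of the 74, 2 were among the 3. They were an intronic MEF2C region at chr5:88042217-88042857 (-1.34, adjusted p of 0.0281) and a ZBTB20 region at chr3:114796535-114797103 (1.67, adjusted p of 0.00844).

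**Figure D4:**
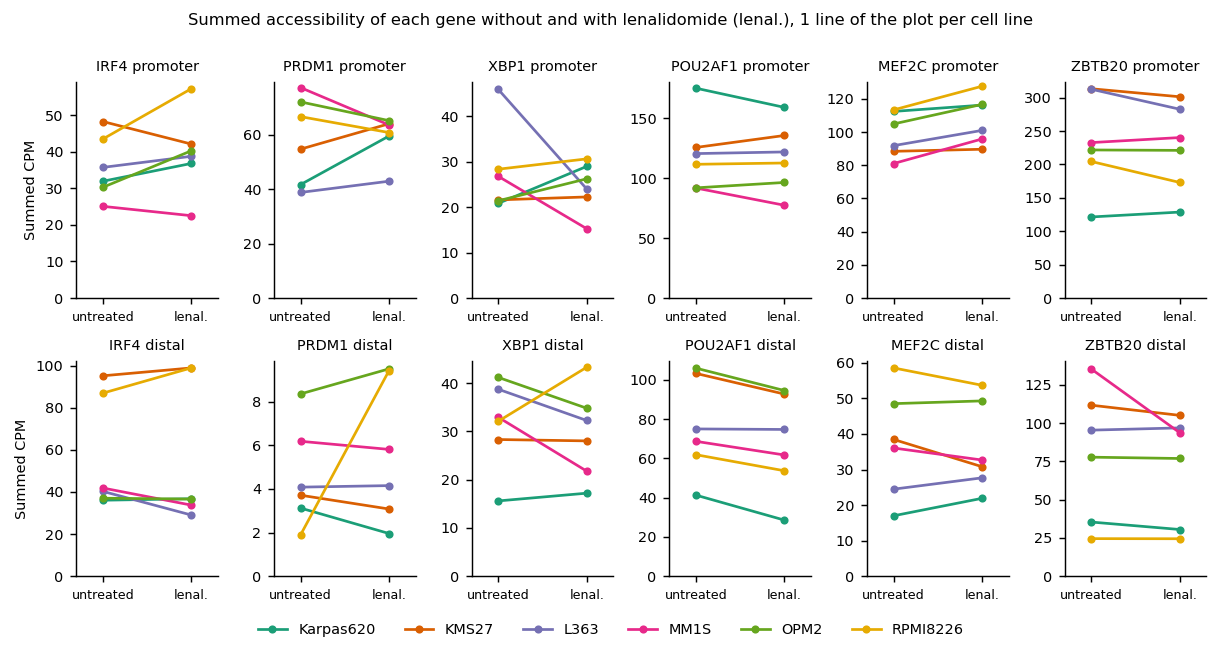
Summed CPM of each gene's promoter regions (top) and distal regions (bottom) in the 6 lines without and with lenalidomide, with each line joined by its own colour. In CPM, all 6 lines were lower at the POU2AF1 distal regions and higher at the MEF2C promoter regions, while with TMM scaling 2 lines were higher at the former and 5 at the latter.

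Summed promoter and distal levels gave small differences. Each was tested by an exact sign-flip permutation test over 6 lines, two-sided, whose smallest possible p is 0.0312, and p-values were adjusted over 12 sums. At the distal regions of POU2AF1, untreated sums ran from 41.3 to 106 CPM (median 71.8) and treated sums from 28.6 to 94.5 CPM (median 68.2). All 6 lines were lower after lenalidomide, by -0.20 ± 0.17 (SD, n = 6) in log2(CPM + 1), with an exact p of 0.0312 and an adjusted p of 0.188. L363 differed by only -0.0051, and with TMM scaling 2 of the 6 lines were higher and the exact p was 0.125. At the promoter regions of MEF2C, untreated sums ran from 81.0 to 113 CPM (median 98.3) and treated sums from 89.6 to 128 CPM (median 109). All 6 lines were higher, by 0.13 ± 0.08, again with an exact p of 0.0312 and an adjusted p of 0.188. With TMM scaling and with local scaling 5 of 6 lines were higher, with exact p-values of 0.0625 and 0.0938. For both sums the groups overlapped, and no sum passed the threshold after adjustment.

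The main regions of the remaining genes moved in different directions in different lines. The IRF4 promoter sum was higher in 4 of 6 lines, by 0.13 ± 0.26, and the PRDM1 promoter sum in 3 of 6, by 0.05 ± 0.29. The XBP1 promoter sum ran from 20.8 to 45.9 CPM untreated and from 15.2 to 30.6 CPM treated, with a mean difference of -0.13 ± 0.57. L363 (-0.91) and MM1S (-0.77) were lower and the other 4 lines higher. The ZBTB20 promoter sum differed by -0.05 ± 0.12 and was lower in 4 of 6 lines. Adjusted exact p-values of these sums were between 0.825 and 0.863.

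The 4 member regions below an unadjusted p of 0.05 are named here because of that, after their values were seen. The ZBTB20 intronic region chr3:114301635-114302292 ran from 0.94 to 16.2 CPM untreated (median 9.53) and from 0.94 to 8.59 CPM treated (median 5.68). It was lower in all 6 lines, although RPMI8226 was at 0.94 CPM in both states, with a log2 difference of -0.75 ± 0.25 (SE) and an adjusted p of 0.0773 in edgeR's test. The POU2AF1 region chr11:111307302-111307813, 1.53 kb upstream of a distant alternative start, was lower in all 6 lines, from 8.67 to 26.1 CPM untreated (median 13.5) and from 4.30 to 18.1 CPM treated (median 8.86). Its log2 difference was -0.60 ± 0.21 (SE), with an adjusted p of 0.0888 in edgeR's test. The largest drop there was in Karpas620, from 14.9 to 4.30 CPM.

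The MEF2C promoter region chr5:88122867-88123461 was higher in 4 of 6 lines, by 0.56 ± 0.20 (SE), with an adjusted p of 0.107 in edgeR's test. It went from 17.7 to 31.7 CPM in Karpas620 and from 13.7 to 29.8 CPM in MM1S, whereas in RPMI8226 it was 43.0 CPM untreated and 41.7 CPM treated. The ZBTB20 upstream region printed above, chr3:114879067-114879640, was lower in all 6 lines, by -0.71 ± 0.29 (SE), with an adjusted p of 0.169 in edgeR's test, from a median of 7.73 to a median of 3.71 CPM. Counts there were near the floor in Karpas620 (4 untreated, 0 treated) and RPMI8226 (4 and 2), while KMS27 had 72 and 68. Without KMS27 the difference was -1.16 with an adjusted p of 0.0604 in edgeR's test. Leaving out RPMI8226 changed the call at 2 of these regions. Without it, edgeR gave the MEF2C region 0.82 with an adjusted p of 0.0272 and the POU2AF1 region -0.73 with an adjusted p of 0.0441. These were 2 of 33 member regions tested. Calls over the whole series rose as well without this line, from 2036 of 37732 to 2503 of 37131 regions. The treated library of RPMI8226 was the deepest of its group, with 4248017 counts against 2117764 untreated, and the part of depth in this result was not tested.

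**Figure D5:**
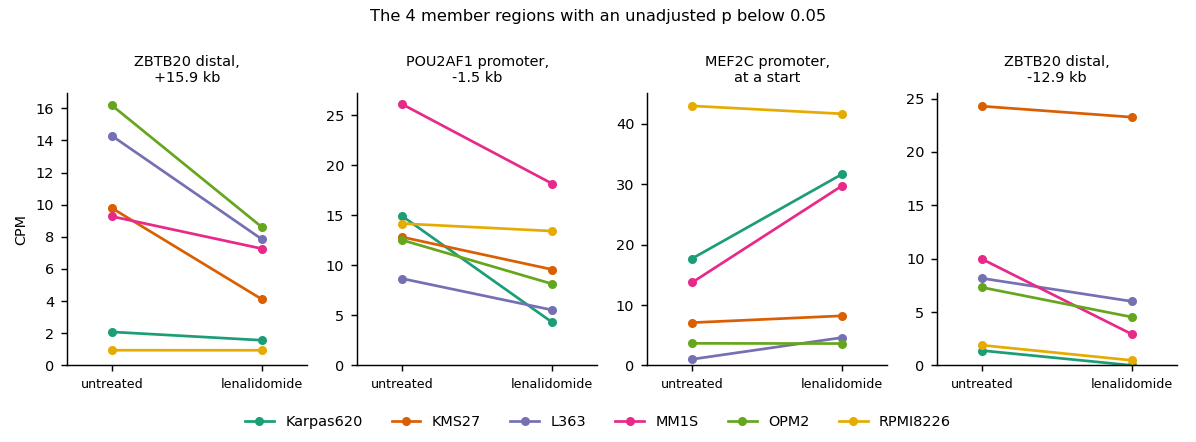
CPM of the 4 member regions with an unadjusted p below 0.05 in the 6 lines without and with lenalidomide, each line in its own colour. Both ZBTB20 regions and the POU2AF1 region were lower in all 6 lines and the MEF2C region was higher in 4 of 6, with untreated and treated ranges overlapping in each panel.

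Most genes of the wider network did not pass the threshold either. Of the tested regions, 0 of 11 partner genes and 0 of 8 genes of the B cell program were called by edgeR, and 1 of 11 plasma cell and secretory genes was lowered. That gene was MZB1, a chaperone of immunoglobulin assembly, which fell by 0.49 ± 0.14 (SE, log2) with an adjusted p of 0.0311 in edgeR's test and was lower in 5 of 6 lines. Its mean level was 38.8 CPM untreated and 27.5 CPM treated. The median log2 difference was -0.06 over the partners, -0.02 over the B cell genes and -0.12 over the plasma cell and secretory genes, against -0.01 over all regions tested. Among the cell type markers, MZB1 was also the only plasma cell marker called of 6, and 1 T cell marker region rose, that of CD2, which was higher in 6 of 6 lines, with means of 3.92 and 8.74 CPM and a distance of 9690 bases from the start.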

How the data were processed

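Per the submitters' processing notes and the study's methods, the authors used Bowtie2 2.2.6 on GRCh37, SAMtools 1.7 and MACS2 2.1.0.20151222 at a q of 0.01, and the deposited regions are the union of the peaks of 28 libraries. The methods share 1 heading with ChIP-seq. The sources used here do not state for ATAC-seq whether duplicates were removed, read ends were shifted or reads or fragments were counted. The deposited raw counts per region were used. The RPM values deposited by the authors equal the CPM computed here from those counts. A further deposited table of whole numbers was read as the number of a library's own peaks in a region, which the files do not define.

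The members and the gene lists were chosen with earlier results of these data known. The rule named, for each gene, the tallest promoter region, the 2 tallest distal regions, the most variable region with at least 5 CPM in some line, every region called after lenalidomide, and the 3 genes of most similar pattern. A gene and a region that this rule names are not reported here. Samples were grouped by the treatment label. The lenalidomide comparison used edgeR 4.0.16 in R 4.3.3 (limma 3.58.1) with TMM, filterByExpr and the cell line as a block, since both libraries of a pair come from the same line, with Benjamini-Hochberg adjustment over all regions tested and a threshold of 0.05. The SE of a log2 difference is its size over the root of F. Tested on simulated data of this comparison, it recovered 153 of 200 regions changed 2-fold among 35360, with 3 false calls, and called 0 regions when nothing changed. The changed regions were drawn only from those with higher mean counts, and the simulated spread was fixed, not estimated from these data. The recovery therefore does not describe member regions with few counts. Levels were compared as log2(CPM + 1), with sign-flip permutation tests (scipy 1.17.1). The local ratio is the summed CPM of the other regions within 5 Mb relative to the median line. Motif windows and sequences came from the GRCh37 genome, and none of the printed windows overlaps a UTR in the GENCODE annotation lifted to that build. Protein sequences were not used here. Alternatives were DESeq2 1.42.0, other scalings, filters and pseudocounts, no block, each pair left out, and, chosen after seeing the data, PE1, KMS12BM or KMS12PE left out.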

Additional observations from a re-analysis of the deposited data

Results flagged for a closer look

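Among 36 sets of 6 lines, made of each gene's summed promoter or distal regions untreated, treated and as their difference, 3 held a line whose gap to the nearest other line exceeded Dixon's critical value, and chance flags about 1 in 20 such sets. The PRDM1 promoter sum after lenalidomide was 42.9 CPM in L363, against 59.5 CPM in the next line. The PRDM1 distal sum rose from 1.89 CPM in RPMI8226 by 1.85 in log2(CPM + 1), against 0.17 in the next line. The untreated value there is near the floor, with 4 counts in the intronic region and 0 in the other, against 39 and 1 treated. The XBP1 promoter sum of untreated L363 was 45.9 CPM, against 28.3 CPM in the next of the 6 lines.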

How the results depend on the processing

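The count of member regions changed by lenalidomide was 0 under DESeq2, without TMM, with a minimum of 10 counts per library and with no replicate block, 3 of 107 without a filter on low counts, and between 0 and 2 when a pair was left out. The 3 were MEF2C chr5:88122867-88123461 (0.63, adjusted p = 0.0497 in edgeR's test), MEF2C chr5:88042217-88042857 (-1.34) and ZBTB20 chr3:114796535-114797103 (1.67). Over all regions, the 2036 calls became 834 with DESeq2, 4092 of 154981 without a filter and 587 with at least 10 counts. They became 1310 without KMS27, 1067 without MM1S, 2503 without RPMI8226, and 0 without the block (440 at an unadjusted p below 0.05). The pairing by line is given by the labels.

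Some small mean changes of sums turned sign, none past the threshold. With TMM scaling the POU2AF1 promoter change was 0.014 and the MEF2C distal change 0.037, and with local scaling the latter was 0.013. Leaving out a pair gave -0.076 to 0.056 for MEF2C distal, -0.12 to 0.35 for PRDM1 distal, -0.037 to 0.12 for PRDM1 promoter, -0.25 to 0.023 for XBP1 promoter, -0.19 to 0.0091 for XBP1 distal and -0.056 to 0.014 for POU2AF1 promoter regions. With the single tallest promoter region, the differences per kb were 1.21 for ZBTB20 minus PRDM1, 0.66 for PRDM1 minus IRF4, -0.43 for IRF4 minus POU2AF1, 0.65 for POU2AF1 minus XBP1 and -0.13 for XBP1 minus MEF2C. With local scaling, IRF4 minus POU2AF1 was -0.028 and POU2AF1 minus XBP1 was 0.46 (adjusted permutation p = 0.0182). Without PE1, XBP1 minus MEF2C was 0.36, and without KMS12PE, IRF4 minus POU2AF1 was -0.0051. Regions open in all 22 lines numbered 16 at 2 CPM and 28 at 1 CPM. The cause of these differences was not tested. Depth limits low regions, and each line was assayed once.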
